A study of Mus musculus with 16 samples.

Results

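The 10 genes Tlr1, Tlr2, Tlr4, Tlr6, Tlr7, Tlr8, Tlr9, Tlr13, Cd14 and Myd88 were followed in splenic myeloid-derived suppressor cells (MDSCs) of mice with a tumor. They are 8 of the Toll-like receptors together with a co-receptor and an adaptor, chosen by symbol, and all 10 were among the 24421 gene symbols of each library. MDSCs are immature myeloid cells that expand in tumor-bearing hosts and restrain T-cell responses. Monocytic MDSCs (M-MDSCs, CD11b-high Ly6C+ Ly6G-) and granulocytic MDSCs (G-MDSCs, CD11b-high Ly6C- Ly6G+) were sorted from the same spleens of 4 wild-type (WT) and 4 Nlrp3-/- mice, which gave 16 libraries with n = 4 in each group. All mice were on the C57BL/6 strain and carried a subcutaneous B16.F10 melanoma, a transplanted mouse tumor line, so that no group was free of tumor. Both genotypes were matched for sex and age, and each RNA sample came from 1 mouse. In the Nlrp3-/- mice an EGFP cassette inserted into the gene disrupts Nlrp3, a sensor protein of the inflammasome, in every cell of the host, whereas the B16.F10 cells keep the gene. A difference between the genotypes can therefore arise in the sorted cells or in any other cell of the host, and these cannot be told apart here. Total counts per library ran from 2295967 to 6079866.

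Toll-like receptors are membrane proteins that recognize conserved microbial molecules and some molecules of damaged cells. Tlr2 pairs with Tlr1 or Tlr6 at the cell surface to bind bacterial lipopeptides. Tlr4, with its co-receptor Cd14 and the protein Ly96 (MD-2), responds to lipopolysaccharide. Tlr7, Tlr8, Tlr9 and Tlr13 reside in endosomes and recognize nucleic acids: single-stranded RNA for Tlr7 and, less clearly in the mouse, Tlr8, unmethylated CpG DNA for Tlr9 and bacterial ribosomal RNA for Tlr13. All 8 receptors signal through the adaptor Myd88, which recruits IRAK kinases and the ligase Traf6 and leads to NF-kB and interferon regulatory factors (IRFs). In myeloid cells these receptors drive cytokine release, and a Toll-like receptor signal is the usual priming step for the NLRP3 inflammasome.

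Genes were placed on mm10 with the GENCODE annotation. Tlr1 (chr5:64924679-64933563) and Tlr6 (chr5:64952031-64960097) are adjacent paralogs on the minus strand, so that reads in their shared stretches may be split between them with some uncertainty. Tlr7 (chrX:167304929-167330558) and Tlr8 (chrX:167242696-167264329) are also neighbors, both on the minus strand. Tlr13 (chrX:106143204-106160493) lies on the same chromosome on the plus strand. Tlr2 is at chr3:83836272-83841767 on the minus strand, Tlr4 at chr4:66827584-66930284 on the plus strand and Tlr9 at chr9:106222598-106226883 on the plus strand. Myd88 (chr9:119335934-119341411, minus strand) is the only member that overlaps other annotated genes, Slc22a14 on its own strand and Acaa1a on the opposite one. The authors counted reads by strand, which separates Myd88 from Acaa1a but not from Slc22a14.

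The bases before the annotated start are shown for 4 of the 7 members searched in the promoter table. The table holds no entry for Tlr4 and Tlr7, and Cd14 was left out of the search. The 4 shown are Tlr6 and Tlr8, which passed the test between genotypes, and Tlr13 and Myd88, which passed it between subsets in both genotypes. They are printed 5′ to 3′ on the strand of the gene, from RefSeq on GRCm38.p6 (mm10), and bases that GENCODE places in an exon next to the start were left out. Capitals mark matches, on either strand, to 5 short motifs: GAGGAA of PU.1, TTGCNNAA of C/EBP, GGNNTTTCC of NF-kB, GAAANNGAA of IRF and TGANTCA of AP-1. The Tlr6 bases (chr5:64959167-64959416, minus strand) precede the more downstream of its 2 RefSeq start sites and lie in an intron of the GENCODE gene. Those of Tlr8 are chrX:167264330-167264579 (minus strand), those of Tlr13 chrX:106143025-106143203 (plus strand) and those of Myd88 chr9:119340042-119340268 (minus strand). The Myd88 bases precede a RefSeq start site inside the GENCODE gene, whose 5′ end is at 119341411, and so do not lie upstream of that gene.
Tlr6: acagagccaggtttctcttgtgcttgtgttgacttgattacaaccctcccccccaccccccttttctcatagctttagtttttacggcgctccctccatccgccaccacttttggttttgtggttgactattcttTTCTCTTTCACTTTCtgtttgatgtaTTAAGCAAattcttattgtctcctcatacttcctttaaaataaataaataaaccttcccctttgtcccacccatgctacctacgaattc
Tlr8: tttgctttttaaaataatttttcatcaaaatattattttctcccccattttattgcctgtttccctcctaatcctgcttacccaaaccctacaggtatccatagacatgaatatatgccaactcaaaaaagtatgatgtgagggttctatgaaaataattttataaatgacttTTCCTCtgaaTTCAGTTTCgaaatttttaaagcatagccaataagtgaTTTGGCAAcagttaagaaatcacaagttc
Tlr13: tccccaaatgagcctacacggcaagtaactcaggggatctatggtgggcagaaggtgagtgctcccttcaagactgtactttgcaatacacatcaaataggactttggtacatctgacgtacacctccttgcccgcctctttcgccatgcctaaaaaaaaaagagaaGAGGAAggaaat
Myd88: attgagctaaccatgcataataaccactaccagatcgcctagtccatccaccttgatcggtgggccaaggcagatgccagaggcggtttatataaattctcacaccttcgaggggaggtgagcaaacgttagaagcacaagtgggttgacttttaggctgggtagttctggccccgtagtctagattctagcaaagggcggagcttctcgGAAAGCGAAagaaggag

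The Tlr6 stretch held a pair of overlapping IRF matches on the opposite strand, at 115 to 107 and 109 to 101 bases before the start, and a C/EBP match at 89 to 82. Myd88 held 1 IRF match, on its own strand, at 40 to 32 bases before its RefSeq start site, within the GENCODE gene. Tlr8 held a PU.1 match at 77 to 72, an IRF match at 67 to 59 and a C/EBP match at 29 to 22 bases, all on the opposite strand, and Tlr13 a PU.1 match at 83 to 78 bases on its own strand. Over the 250 bases before all 32851 start sites of the table, a window no shorter than these stretches, 7.13% held the IRF motif, 23.3% the PU.1 motif and 9.56% the C/EBP motif. The NF-kB and AP-1 motifs, found before 4.93% and 6.75% of start sites, had no match in these 4 stretches. Of the other members searched, Tlr9 held a PU.1 match at 112 to 107 and an AP-1 match at 58 to 52 bases. A PU.1 match lay before 1 of the 2 Tlr1 start sites, and Tlr2 and the more upstream Tlr6 start site held no match. A match is a run of letters and not a measured binding site.

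The sorted cells carried the markers of their labels, although Ly6g, the gene of a sorting marker, was not among the gene symbols. The summed level of 9 monocytic genes was 5732 to 9786 CPM (counts scaled to a library total of 1000000, after TMM over the 16 libraries) in M-MDSCs and 788 to 1351 CPM in G-MDSCs. That of 8 granulocytic genes was 18997 to 28260 CPM in G-MDSCs and 493 to 2419 CPM in M-MDSCs. The highest of the M-MDSC values belonged to WT replicate 2, which also had 305 CPM of immature granulocyte genes. These genes summed to 76.2, 118 and 85.3 CPM in WT M-MDSC replicates 1, 3 and 4 and to 60.9 to 134 CPM in Nlrp3-/- M-MDSCs. In G-MDSCs they were lower, at 1.86 to 11.0 CPM. Nlrp3 itself, counted in WT at 40.7 to 88.9 CPM in M-MDSCs and 252 to 331 CPM in G-MDSCs, was at 0.514 to 1.88 CPM and 5.51 to 13.6 CPM in Nlrp3-/- mice. Globin genes were at 0 in every library. Tlr7, Tlr8 and Tlr13 are X-linked, and the libraries were alike in sex. Xist was at 199 CPM or more in each of the 16, and the Y-linked Ddx3y gave 1 count in all. The level of Xist was not alike, with means of 577 CPM in WT and 448 CPM in Nlrp3-/- M-MDSCs, and 334 and 208 CPM in G-MDSCs.

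**Figure D1:**
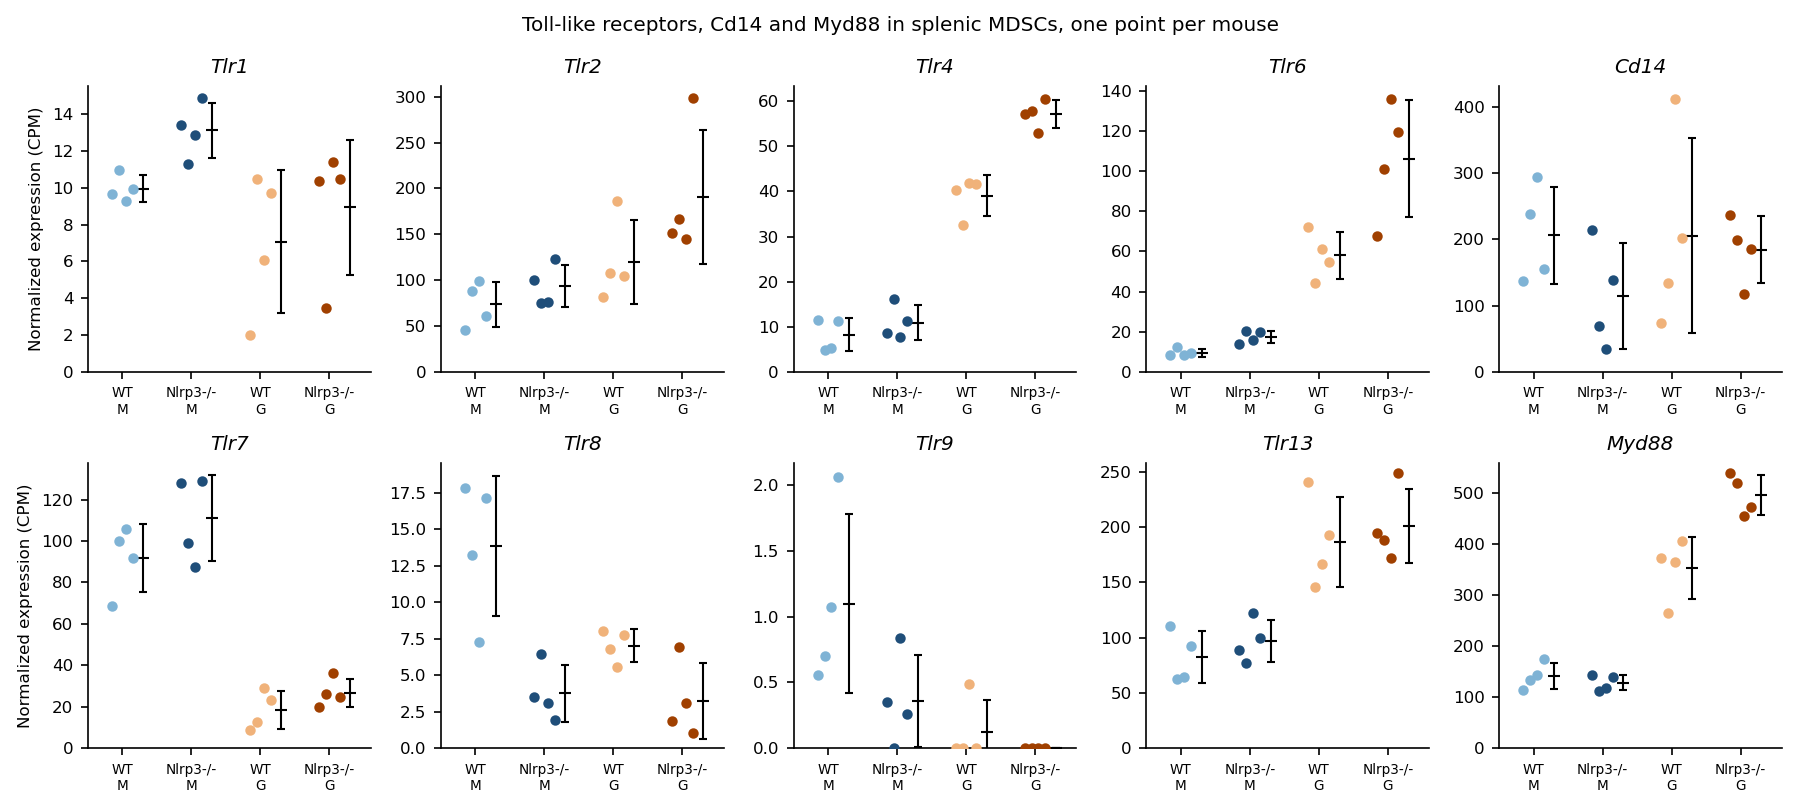
Normalized expression (CPM, linear axis from 0) of the 10 genes in M-MDSCs (M) and G-MDSCs (G) of WT and Nlrp3-/- mice. Each point is 1 mouse, and the black mark is the mean with its SD (n = 4). Tlr4, Tlr6, Tlr13 and Myd88 sit higher in all G-MDSC samples than in all M-MDSC samples of either genotype, Tlr7 sits lower, and the vertical scales differ between genes.

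To examine how the receptors were distributed between the subsets, G-MDSCs were compared with M-MDSCs of the same genotype. A difference was called at an adjusted p below 0.05 (edgeR quasi-likelihood test, Benjamini-Hochberg over all genes tested) with a fold change above 1.5. In WT mice Tlr6, Tlr4, Myd88 and Tlr13 were higher in G-MDSCs and Tlr7 and Tlr8 lower, 6 of the 9 members tested, against 53.3% of all 9739 genes tested (26.3% higher and 27.1% lower). In Nlrp3-/- mice Tlr6, Tlr4, Myd88, Tlr13 and Tlr2 were higher and Tlr7 lower, again 6 of 9, against 51.0% of 10071 genes (23.7% higher and 27.4% lower). The members' share was thus close to that of all genes. In WT mice the subsets did not overlap for 4 members higher and 1 lower in G-MDSCs, beside 2479 higher and 2572 lower of all 9739 genes. In Nlrp3-/- mice these were 5 and 1 members, beside 2640 and 2415 of 10071 genes. A lack of overlap between the subsets was thus common among all genes. Tlr9 had too few counts to be tested. The median log2 fold change of the members was 0.70 in WT and 0.90 in Nlrp3-/- mice, beside -0.05 and -0.12 over all genes tested. These are bulk samples, in which fewer cells that express a gene and less RNA per cell cannot be told apart. CPM values also share each library's total, so that the division between higher and lower depends on the scaling. Without TMM the median of all genes tested moved to -0.79 in WT and -0.83 in Nlrp3-/- mice, and the values of the members without TMM are given beside each gene.

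Tlr6, the partner of Tlr2 for diacylated lipopeptides, had the largest fold of the members that were higher in G-MDSCs. It was at 8.18, 12.5, 8.21 and 9.25 CPM in WT M-MDSCs (replicates 1 to 4) and at 72.1, 44.3, 61.1 and 54.9 CPM in WT G-MDSCs. The lowest G-MDSC sample thus lay above the highest M-MDSC sample. The log2 fold change was 2.60 ± 0.23 (SE; adjusted p = 1.72e-06, edgeR) in WT and 2.49 ± 0.23 (adjusted p = 5.85e-07, edgeR) in Nlrp3-/- mice. Without TMM it was 1.86 and 1.77, and both calls held.

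Tlr4, the lipopolysaccharide receptor, followed the same order. It was at 11.5, 4.92, 5.35 and 11.3 CPM in WT M-MDSCs and at 40.4, 32.5, 41.9 and 41.6 CPM in WT G-MDSCs. The Nlrp3-/- values were 8.61, 16.2, 7.73 and 11.2 CPM in M-MDSCs and 57.1, 57.8, 53.0 and 60.6 CPM in G-MDSCs. The subsets did not overlap in either genotype, and the log2 fold change was 2.27 in both, with an SE of 0.30 in WT and 0.25 in Nlrp3-/- mice (adjusted p = 4.43e-05 and 2.94e-06, edgeR). Without TMM it was 1.53 and 1.55, and both calls held.

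Myd88, the adaptor shared by all 8 receptors, was higher in G-MDSCs as well. Its level was 114, 134, 143 and 175 CPM in WT M-MDSCs and 373, 265, 365 and 405 CPM in WT G-MDSCs. The Nlrp3-/- mice had 143, 113, 118 and 139.9 CPM in M-MDSCs and 538, 519, 454 and 473 CPM in G-MDSCs. Every G-MDSC sample exceeded every M-MDSC sample. G-MDSCs exceeded M-MDSCs by 1.32 ± 0.18 on the log2 scale in WT (adjusted p = 7.51e-05, edgeR) and 1.83 ± 0.16 in Nlrp3-/- mice (adjusted p = 3.61e-07, edgeR). Without TMM it was 0.57 in WT, where the fold fell below the threshold, and 1.11 in Nlrp3-/- mice, where the call held.

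Tlr13, the sensor of bacterial ribosomal RNA, was at 111, 63.0, 64.4 and 92.5 CPM in WT M-MDSCs and at 241, 146, 167 and 193 CPM in WT G-MDSCs. In Nlrp3-/- mice it ranged from 77.1 to 122 CPM in M-MDSCs and from 172 to 249 CPM in G-MDSCs, again without overlap. Its log2 fold change was 1.18 ± 0.22 in WT (adjusted p = 0.000699, edgeR) and 0.93 ± 0.18 in Nlrp3-/- mice (adjusted p = 0.000559, edgeR). Without TMM it was 0.44 and 0.21, in the same direction, and did not pass in either genotype, so that the call rests on the scaling.

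Tlr7, a receptor for single-stranded RNA, had the opposite distribution. In WT mice it was at 68.7, 100.0, 106 and 91.8 CPM in M-MDSCs and at 9.01, 12.5, 29.1 and 23.4 CPM in G-MDSCs. The Nlrp3-/- mice had 128, 99.1, 87.7 and 129 CPM in M-MDSCs and 20.1, 26.2, 36.3 and 24.7 CPM in G-MDSCs. The highest G-MDSC value was far below the lowest M-MDSC value in both genotypes. G-MDSCs differed from M-MDSCs by -2.30 ± 0.31 on the log2 scale in WT (adjusted p = 6.58e-05, edgeR) and -2.17 ± 0.22 in Nlrp3-/- mice (adjusted p = 1.59e-06, edgeR), and the calls held under every scaling tried, at -3.03 and -2.89 without TMM.

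Tlr8, its neighbor and close relative on the X chromosome, differed between subsets in WT mice with a smaller fold. It was at 17.8, 13.2, 7.31 and 17.1 CPM in WT M-MDSCs and at 8.01, 6.77, 5.57 and 7.78 CPM in WT G-MDSCs, where replicate 3 of the M-MDSCs lay within the G-MDSC range. Its log2 fold change was -0.97 ± 0.32 (adjusted p = 0.0210, edgeR). Without WT M-MDSC replicate 1 or WT G-MDSC replicate 3 it was -0.86 in either case and missed the threshold (adjusted p = 0.0545 and 0.0586, edgeR), as it did in a model of all 16 libraries (-0.98, adjusted p = 0.0813, edgeR). Without TMM it was -1.71 and passed. In Nlrp3-/- mice the log2 fold change was -0.32 ± 0.62 (adjusted p = 0.692, edgeR), with levels of 1.05 to 6.91 CPM in G-MDSCs and 1.93 to 6.48 CPM in M-MDSCs, and it was -1.03 without TMM, which did not pass either.

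Tlr2, the common partner of Tlr1 and Tlr6, was at 45.7, 88.3, 98.8 and 61.3 CPM in WT M-MDSCs and at 81.1, 108, 186 and 104 CPM in WT G-MDSCs. These groups overlapped, and the log2 fold change of 0.70 ± 0.28 did not pass (adjusted p = 0.0520, edgeR). It did pass in 8 of 11 other settings (adjusted p between 0.000568 and 0.0468), among them DESeq2 (0.0375), the model of all 16 libraries (0.0468, edgeR) and the fit with the mouse as a block (0.00138, edgeR). It also passed without WT M-MDSC replicate 3 (0.83, adjusted p = 0.0384, edgeR) or WT G-MDSC replicate 1 (0.86, adjusted p = 0.0247, edgeR). Without TMM the difference was -0.05, so that its direction depends on the scaling. In Nlrp3-/- mice Tlr2 was at 100.2, 74.7, 76.4 and 123 CPM in M-MDSCs and at 151, 167, 145 and 299 CPM in G-MDSCs, which did not overlap. There the difference was 0.90 ± 0.25 on the log2 scale (adjusted p = 0.00719, edgeR), and 0.16 without TMM (adjusted p = 0.557, edgeR).

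Cd14, which hands lipopolysaccharide to Tlr4, varied widely between mice. It was at 137, 238, 295 and 156 CPM in WT M-MDSCs and at 74.5, 134, 413 and 202 CPM in WT G-MDSCs. The G-MDSC range enclosed the M-MDSC range, and the log2 fold change was -0.01 ± 0.42 (adjusted p = 0.992, edgeR), or -0.74 without TMM. In Nlrp3-/- mice Cd14 was at 215, 68.9, 35.1 and 139 CPM in M-MDSCs and at 237, 199, 117 and 186 CPM in G-MDSCs. Within each of these 4 mice the G-MDSC value was the higher one. Without a block the log2 fold change was 0.55 ± 0.42 (adjusted p = 0.284, edgeR), and with the mouse as a block it was 0.82, which passed (adjusted p = 0.00386, edgeR), as did the unblocked fit without M-MDSC replicate 1 (1.07, adjusted p = 0.0191, edgeR). Without TMM the unblocked value was -0.18.

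Tlr1, the partner of Tlr2 for triacylated lipopeptides, did not pass in either genotype. Its mean level was 9.96 ± 0.724 CPM (SD, n = 4) in WT M-MDSCs and 7.07 ± 3.89 CPM in WT G-MDSCs, on 6 to 31 counts in each library of the latter. The log2 fold change was -0.50 ± 0.40 in WT (adjusted p = 0.297, edgeR) and -0.67 ± 0.36 in Nlrp3-/- mice (adjusted p = 0.127, edgeR). Without TMM these became -1.24 and -1.38 and passed (adjusted p = 0.0159 and 0.00443, edgeR).

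Tlr9, the CpG DNA receptor, was near the limit of detection. Its counts were 3 to 6 in each WT M-MDSC library and 0 to 4 in each Nlrp3-/- one, at most 2.06 CPM. In G-MDSCs it gave 2 counts in WT replicate 3 and none in the other 7 libraries, where a count of 0 allows between 0.493 and 0.923 CPM without TMM (the level of 3 counts, for counting error only). Its level was too low to compare between groups at this depth.

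**Figure D2:**
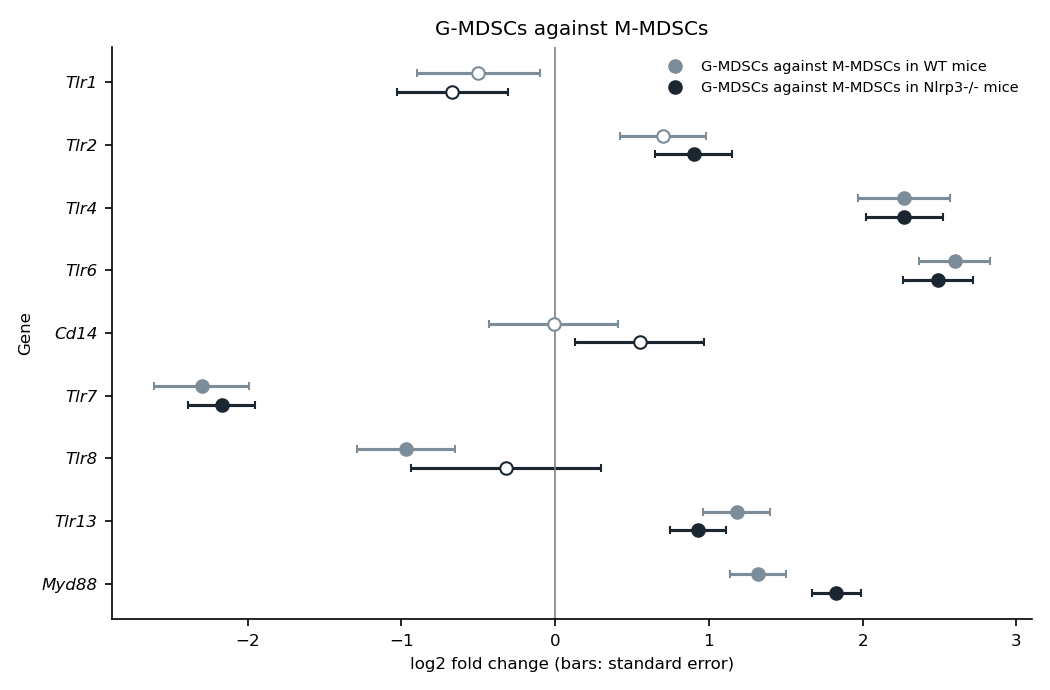
Log2 fold change of G-MDSCs against M-MDSCs (x axis, bars are the standard error) for the 9 members tested (y axis), with WT mice in grey and Nlrp3-/- mice in black. Filled points passed the test. Tlr4 and Tlr6 lie above 2 and Tlr7 below -2 in both genotypes, while Tlr8 passed in WT mice and Tlr2 in Nlrp3-/- mice.

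To ask whether loss of Nlrp3 was accompanied by a change in these receptors, Nlrp3-/- and WT mice were compared within each subset. Tlr6 was higher in Nlrp3-/- mice in both subsets, and Tlr8 was lower in M-MDSCs. In M-MDSCs 2 of the 9 members tested passed, 1 in each direction, beside 10.6% of all 9986 genes tested (3.51% higher and 7.10% lower). In G-MDSCs 1 of 9 passed, beside 16.4% of 9273 genes (4.70% higher and 11.7% lower). The median log2 fold change of the members was 0.31 in M-MDSCs and 0.41 in G-MDSCs, beside 0.07 and 0.03 over all genes tested. In M-MDSCs the genotypes did not overlap for Tlr1, Tlr6 and Tlr8, and in G-MDSCs for Tlr4 and Myd88, whereas 19.3% and 24.4% of all genes tested did not overlap.

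Tlr6 was at 14.0, 20.1, 15.9 and 19.8 CPM in Nlrp3-/- M-MDSCs, each above the 8.18 to 12.5 CPM of the 4 WT samples. This was a log2 fold change of 0.88 ± 0.23 (adjusted p = 0.0316, edgeR). In G-MDSCs it was at 67.9, 101, 136 and 119.6 CPM in Nlrp3-/- mice against 44.3 to 72.1 CPM in WT mice. Replicate 1 of the Nlrp3-/- G-MDSCs lay within the WT range and the other 3 lay above it, and the log2 fold change was 0.79 ± 0.22 (adjusted p = 0.0250, edgeR). Neither call was firm against the loss of a library. In M-MDSCs it was lost without WT replicate 1, 3 or 4 or Nlrp3-/- replicate 2 or 4, with log2 fold changes of 0.84, 0.82, 0.87, 0.77 and 0.79 and adjusted p of 0.0610, 0.0857, 0.0875, 0.0864 and 0.112 (edgeR). In G-MDSCs it was lost without WT replicate 2 or 4 or Nlrp3-/- replicate 2, 3 or 4, with log2 fold changes of 0.69, 0.77, 0.81, 0.65 and 0.74 and adjusted p of 0.0661, 0.0601, 0.0565, 0.0820 and 0.0717 (edgeR).

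Tlr8 was at 3.49, 6.48, 3.13 and 1.93 CPM in Nlrp3-/- M-MDSCs against 17.8, 13.2, 7.31 and 17.1 CPM in WT M-MDSCs. Behind these values were 15 to 38 counts in Nlrp3-/- mice and 41 to 96 counts in WT mice, and the highest Nlrp3-/- sample lay below the lowest WT sample. The log2 fold change was -1.86 ± 0.39 (adjusted p = 0.0138, edgeR), which held with any 1 library left out (-2.29 to -1.66). In G-MDSCs Tlr8 was at 1.85, 6.91, 3.11 and 1.05 CPM in Nlrp3-/- mice, from 4 to 28 counts, and at 5.57 to 8.01 CPM in WT mice. There replicate 2 of the Nlrp3-/- mice lay within the WT range and the other 3 lay below it. The log2 fold change of -1.19 ± 0.53 did not pass (adjusted p = 0.141, edgeR), but did without that replicate (-1.86, adjusted p = 0.0348, edgeR).

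Of the members that did not pass in either subset, Tlr4 and Myd88 came closest, in G-MDSCs. Tlr4 was at 57.1 ± 3.11 CPM (SD, n = 4) in Nlrp3-/- G-MDSCs and 39.1 ± 4.46 CPM in WT G-MDSCs, a log2 fold change of 0.46 ± 0.17 (adjusted p = 0.0803, edgeR). With offsets for GC content and transcript length it was 0.94 and passed (adjusted p = 0.00582, edgeR). Myd88 was at 496 ± 39.4 CPM and 352 ± 60.6 CPM in the same groups, a log2 fold change of 0.41 ± 0.16 (adjusted p = 0.0884, edgeR). In M-MDSCs the values were 0.45 ± 0.35 for Tlr4 and -0.10 ± 0.17 for Myd88 (adjusted p = 0.414 and 0.737, edgeR).

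Cd14 had log2 fold changes of -0.80 ± 0.46 in M-MDSCs and -0.25 ± 0.39 in G-MDSCs (adjusted p = 0.265 and 0.698, edgeR). In M-MDSCs the 35.1 to 215 CPM of the Nlrp3-/- mice overlapped the 137 to 295 CPM of the WT mice through replicates 1 and 4. Without Nlrp3-/- replicate 1 the log2 fold change was -1.37 and passed (adjusted p = 0.0313, edgeR). Tlr2 had 0.37 ± 0.25 in M-MDSCs and 0.58 ± 0.27 in G-MDSCs (adjusted p = 0.343 and 0.157, edgeR), the latter 0.89 without WT replicate 3 (adjusted p = 0.0260, edgeR).

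Tlr1, Tlr7 and Tlr13 showed small differences. In M-MDSCs the log2 fold changes were 0.43 ± 0.21, 0.31 ± 0.19 and 0.26 ± 0.21, with adjusted p of 0.197, 0.306 and 0.433 (edgeR). Tlr1 was at 11.3 to 14.9 CPM in Nlrp3-/- M-MDSCs and 9.28 to 11.0 CPM in WT M-MDSCs, which did not overlap. In G-MDSCs the log2 fold changes were 0.25 ± 0.49, 0.44 ± 0.34 and 0.02 ± 0.18, with adjusted p of 0.764, 0.396 and 0.950 (edgeR). Tlr7 in M-MDSCs passed under the GC and length offsets (0.63, adjusted p = 0.0470, edgeR).

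Among the markers of other cells, the macrophage and dendritic cell sums moved with the genotype in both subsets. The plasmacytoid dendritic cell sum was apart in G-MDSCs only, at 76.6 to 93.8 CPM in WT and 109 to 171 CPM in Nlrp3-/- mice. Most of it came from 1 gene, Ly6d, with means of 76.6 CPM in WT and 122 CPM in Nlrp3-/- G-MDSCs. Ccr9 (3.56 and 0.933 CPM) and Bst2 (4.35 and 3.97 CPM) did not rise. Siglech (0.413 and 0.481 CPM), Klk1 (0.169 and 0.414 CPM) and Cox6a2 (0 and 0.420 CPM) were very low. Sums of the B cell, T and NK cell, erythroid, eosinophil and basophil, immature granulocyte and melanoma lists overlapped between genotypes in both subsets. Single genes of such a sum could still differ in opposite directions. In G-MDSCs the B cell gene Ms4a1 had means of 107 CPM in WT and 37.9 CPM in Nlrp3-/- mice, and Cd79b 56.9 and 88.6 CPM. The summed level of 9 macrophage genes was 144 to 163 CPM in WT and 282 to 403 CPM in Nlrp3-/- M-MDSCs, and 143 to 275 CPM against 465 to 667 CPM in G-MDSCs. Mertk was at 0 in all WT M-MDSCs, and all 9 genes had counts in the other groups. The 8 dendritic cell genes summed to 494 to 779 CPM in WT and 780 to 1280 CPM in Nlrp3-/- M-MDSCs, and to 634 to 974 CPM against 1052 to 1625 CPM in G-MDSCs, with Xcr1 at 0 in Nlrp3-/- G-MDSCs. Most of this sum came from the MHC class II genes H2-Ab1 and H2-Eb1. Their means were 347 and 233 CPM in WT and 556 and 421 CPM in Nlrp3-/- M-MDSCs, and 308 and 305 CPM against 540 and 547 CPM in G-MDSCs. Itgax also rose, from 17.3 to 34.6 CPM in M-MDSCs and from 176 to 241 CPM in G-MDSCs. Flt3 in M-MDSCs (17.4 and 17.9 CPM) and Clec9a in G-MDSCs (2.67 and 2.03 CPM) did not. The 20 most abundant genes of each library took 21.2% to 30.0% of the counts in WT M-MDSCs and 15.2% to 21.1% in Nlrp3-/- M-MDSCs, and 33.2% to 43.2% against 27.9% to 29.8% in G-MDSCs. The part of these in the Tlr6 and Tlr8 results was not tested.

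**Figure D3:**
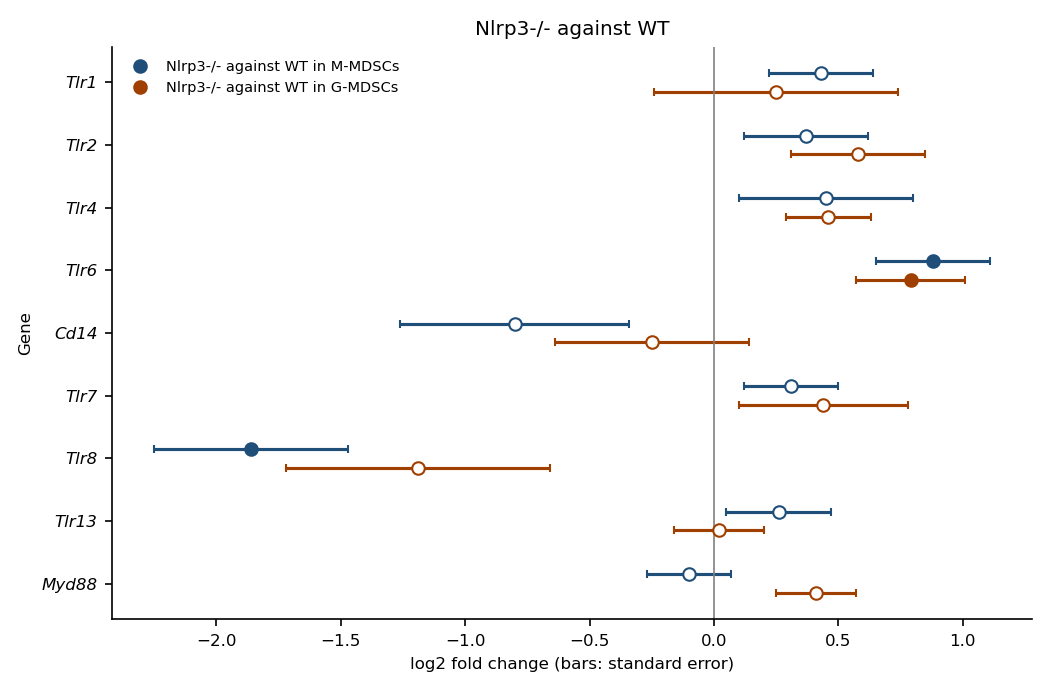
Log2 fold change of Nlrp3-/- against WT mice (x axis, bars are the standard error) for the 9 members tested (y axis), in M-MDSCs (blue) and G-MDSCs (brown). Filled points passed the test, which were Tlr6 at 0.88 and 0.79 and Tlr8 at -1.86 in M-MDSCs.

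The genotype effect was also compared between the subsets, as the difference of the 2 log2 fold changes in a model of all 16 libraries. No member passed (edgeR), and none did under DESeq2, beside 0.0280% of all 10696 genes tested. One member, Myd88, had an unadjusted p below 0.05, as had 4.49% of all genes. Its genotype effect was higher in G-MDSCs by 0.63 ± 0.23 on the log2 scale (adjusted p = 0.992, edgeR). For Tlr8 the difference was 0.77 ± 0.67 and for Cd14 0.69 ± 0.66, each with an adjusted p of 0.992 (edgeR). The other 6 members tested lay between -0.13 (Tlr13) and 0.32 (Tlr2), with Tlr6 at 0.01 ± 0.37. That Tlr8 passed in M-MDSCs and not in G-MDSCs is thus not a difference between the subsets that this test found.

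The partners of these receptors were taken from lists of 55 further genes of the pathway. Counts are again to be read beside the shares of all genes given above. In M-MDSCs 5 of the 53 tested differed between genotypes, 3 higher and 2 lower, and in G-MDSCs 11 of 51, 6 higher and 5 lower. The first count was 10 under DESeq2 and 2 with the GC and length offsets, which also took the second to 6. Between subsets, 12 of 51 were higher in G-MDSCs and 13 lower in WT mice, and 14 of 53 higher and 15 lower in Nlrp3-/- mice. Their median log2 fold change, 0.07 and 0.15 for the genotypes and -0.10 and -0.03 for the subsets, stood beside 0.07, 0.03, -0.05 and -0.12 over all genes. For the genotype effect between subsets 0 of 53 passed (edgeR) and 2 had an unadjusted p below 0.05, beside 4.49% of all genes tested.

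Among the other Toll-like receptors, Tlr5, the flagellin receptor, was higher in G-MDSCs by 2.05 ± 0.45 in WT and 2.11 ± 0.47 in Nlrp3-/- mice on the log2 scale (adjusted p = 0.00210 and 0.00190, edgeR). Tlr3, which binds double-stranded RNA and does not use Myd88, was lower in Nlrp3-/- G-MDSCs than in Nlrp3-/- M-MDSCs (-2.09 ± 0.73, adjusted p = 0.0264, edgeR), from at most 23 counts. That call was lost without Nlrp3-/- M-MDSC replicate 2 or 3 or G-MDSC replicate 1 or 4, with log2 fold changes between -2.65 and -1.69 over the libraries left out. No gene of this list differed between genotypes.

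Of the 5 accessory and co-receptors, Ly96, which binds lipopolysaccharide together with Tlr4, was low in all groups, at 4.69 ± 1.09 CPM in WT M-MDSCs and 4.28 ± 3.01 CPM in WT G-MDSCs (SD, n = 4). Its means in Nlrp3-/- mice were 4.41 ± 2.01 CPM in M-MDSCs and 8.20 ± 1.74 CPM in G-MDSCs, and it passed no test. Ly86 (MD-1) and Cd180, which form a receptor complex of the Toll family, were lower in G-MDSCs in both genotypes, and Lbp, the lipopolysaccharide-binding protein, was higher. These 3 genes were named after their values were seen, and without TMM Lbp did not pass (0.56 in WT and 0.30 in Nlrp3-/- mice). Ly86 was also lower in Nlrp3-/- than in WT G-MDSCs (-1.75 ± 0.51, adjusted p = 0.0284, edgeR), at 1.23 to 3.93 CPM against 5.57 to 10.9 CPM. This call was lost without WT replicate 4 or Nlrp3-/- replicate 1, 2 or 3 (-2.15 to -1.47), and with the GC and length offsets (-1.65, adjusted p = 0.0501, edgeR).

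The 9 genes for trafficking, folding and endosomal processing serve mainly the nucleic acid receptors. Unc93b1, which escorts these receptors to endosomes, was at 672, 638, 468 and 499 CPM in Nlrp3-/- G-MDSCs against 154, 154, 382 and 373 CPM in WT G-MDSCs, without overlap (1.01 ± 0.29, adjusted p = 0.0267, edgeR). Cnpy3, a chaperone of the receptors, and the protease Ctsb, both named after their values were seen, were also higher there (0.80 ± 0.21 and 0.67 ± 0.15, adjusted p = 0.0183 and 0.00807, edgeR). The Cnpy3 call was lost without Nlrp3-/- replicate 2 or 4 (0.61 to 0.91) and at 0.46 with the GC and length offsets (adjusted p = 0.154, edgeR). Hsp90b1 (gp96), the chaperone that folds most Toll-like receptors, was lower in Nlrp3-/- mice in both subsets, with log2 fold changes of -1.13 ± 0.29 in M-MDSCs and -0.85 ± 0.23 in G-MDSCs (adjusted p = 0.0292 and 0.0199, edgeR). That call was lost in M-MDSCs without any 1 of 6 libraries (all but Nlrp3-/- replicates 1 and 2, with a range of -1.58 to -0.94 over the 8) and in G-MDSCs without WT replicate 4 or Nlrp3-/- replicate 2, 3 or 4 (-1.10 to -0.71). In G-MDSCs it was also lost without TMM (-0.72, adjusted p = 0.0528, edgeR), in the model of all 16 libraries (-0.76, adjusted p = 0.0532, edgeR) and with the GC and length offsets (-0.56, adjusted p = 0.113, edgeR). The Unc93b1 call was lost without WT replicate 1 or 2 or Nlrp3-/- replicate 1 or 2 (0.82 to 1.26), and at 0.72 with the GC and length offsets (adjusted p = 0.122, edgeR). Slc15a3, an endosomal peptide transporter, was higher in G-MDSCs by 2.29 ± 0.23 in WT and 2.39 ± 0.21 in Nlrp3-/- mice, and the endosomal protease Ctss was lower, with log2 fold changes of -3.28 ± 0.24 and -3.18 ± 0.16 (adjusted p between 1.61e-09 and 6.2e-06, edgeR).

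Among the 5 adaptors other than Myd88, Tirap, which bridges Tlr2 and Tlr4 to Myd88, was higher in G-MDSCs in both genotypes (2.04 ± 0.24 and 1.73 ± 0.20, adjusted p = 2.31e-05 and 4.89e-06, edgeR). Its values were 13.6 to 20.5 CPM in WT M-MDSCs and 47.4 to 97.3 CPM in WT G-MDSCs. Ticam2 (TRAM) and Ticam1 (TRIF), the adaptors of the route of Tlr4 that does not use Myd88, were lower in G-MDSCs. Ticam2 fell by 3.85 in WT and by 3.40 in Nlrp3-/- mice on the log2 scale (adjusted p = 4.38e-06 and 5.52e-08, edgeR), and Ticam1 by 1.26 and 1.14 (adjusted p = 0.00104 and 0.00753, edgeR). Between genotypes only Pik3ap1 (BCAP), a signaling adaptor of the phosphoinositide 3-kinase pathway, passed, in G-MDSCs. It was at 4.16, 7.90, 11.6 and 8.92 CPM in Nlrp3-/- mice against 22.0, 40.6, 32.7 and 15.2 CPM in WT mice (-1.85 ± 0.36, adjusted p = 0.00347, edgeR). In M-MDSCs the Pik3ap1 difference had the same direction and did not pass (-1.40 ± 0.43, adjusted p = 0.0544, edgeR).

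Irak3 aside, which was listed with the inhibitors and is given below, no IRAK or TRAF gene passed between genotypes in either subset (edgeR). Neither did any gene of the TAK1, IKK and TBK1 kinases. At an unadjusted p below 0.05 there were 2 of the 8 IRAK and TRAF genes and 3 of the 10 kinase genes in M-MDSCs, beside 30.1% of all genes tested, and 0 and 3 in G-MDSCs, beside 32.3% of all genes tested. Irak4, the kinase that Myd88 recruits, was at 102 ± 32.9 CPM in WT and 86.6 ± 16.2 CPM in Nlrp3-/- M-MDSCs, and at 159 ± 59.8 and 145 ± 17.3 CPM in G-MDSCs. The subset difference was 0.64 ± 0.17 in Nlrp3-/- mice, which passed (adjusted p = 0.00500, edgeR), and 0.64 ± 0.27 in WT mice, which passed with the mouse as a block and not without it (adjusted p = 0.00127 and 0.0591, edgeR). The Nlrp3-/- value was -0.07 without TMM, and its fold was below 1.5 with upper-quartile scaling (0.48), with a filter of 10 counts in every library (0.58) and without M-MDSC replicate 1 or 4 (0.57 in either case). Traf6 had means between 18.9 and 26.4 CPM over the 4 groups and passed no test. Irak3 (IRAK-M), a myeloid inhibitor of this step, was lower in Nlrp3-/- G-MDSCs, at 59.8, 34.1, 36.1 and 28.6 CPM against 66.7 to 87.5 CPM in WT G-MDSCs (-1.05 ± 0.22, adjusted p = 0.00585, edgeR). In M-MDSCs the Irak3 difference had the same direction and did not pass (-0.95 ± 0.32, adjusted p = 0.0735, edgeR).

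Of the 6 transcription factors downstream, 4 passed between genotypes in each subset. Rela, Irf3 and Irf7 were higher in Nlrp3-/- mice and Rel (c-Rel) lower, in M-MDSCs and in G-MDSCs alike. Irf7, the factor behind type I interferon induction from endosomal receptors, rose by 0.70 ± 0.17 in M-MDSCs and 0.80 ± 0.17 in G-MDSCs (adjusted p = 0.0231 and 0.00525, edgeR). Irf3 rose by 0.81 ± 0.19 and 0.80 ± 0.21 (adjusted p = 0.0204 and 0.0157, edgeR) and Rela, the p65 subunit of NF-kB, by 0.77 ± 0.18 and 0.82 ± 0.18 (adjusted p = 0.0221 and 0.00787, edgeR). Rel was at 34.9, 90.6, 47.6 and 51.3 CPM in Nlrp3-/- M-MDSCs against 104 to 153 CPM in WT M-MDSCs (-1.10 ± 0.25, adjusted p = 0.0195, edgeR), and its log2 fold change in G-MDSCs was -1.40 ± 0.28 (adjusted p = 0.00414, edgeR). With the GC and length offsets none of these 8 calls was kept: the log2 fold changes were then 0.46 for Irf7, 0.52 for Irf3, 0.45 for Rela and -0.64 for Rel in M-MDSCs, and 0.54, 0.49, 0.53 and -0.79 in G-MDSCs. Leaving out 1 library ended the M-MDSC calls too, of Irf7 and Rela for any of 6 libraries (all but WT and Nlrp3-/- replicate 1, ranges 0.61 to 0.81 and 0.66 to 0.89), of Irf3 without WT replicate 3 or 4 or Nlrp3-/- replicate 2 (0.66 to 0.90) and of Rel without WT replicate 2 or Nlrp3-/- replicate 4 (-1.46 to -0.95). In G-MDSCs it ended that of Irf3, without Nlrp3-/- replicate 3 (0.68, adjusted p = 0.0551, edgeR). Irf5, which acts with Myd88, was lower in G-MDSCs than in M-MDSCs (-2.10 ± 0.17 in WT and -1.82 ± 0.29 in Nlrp3-/- mice, adjusted p = 8.28e-07 and 0.000132, edgeR).

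**Figure D4:**
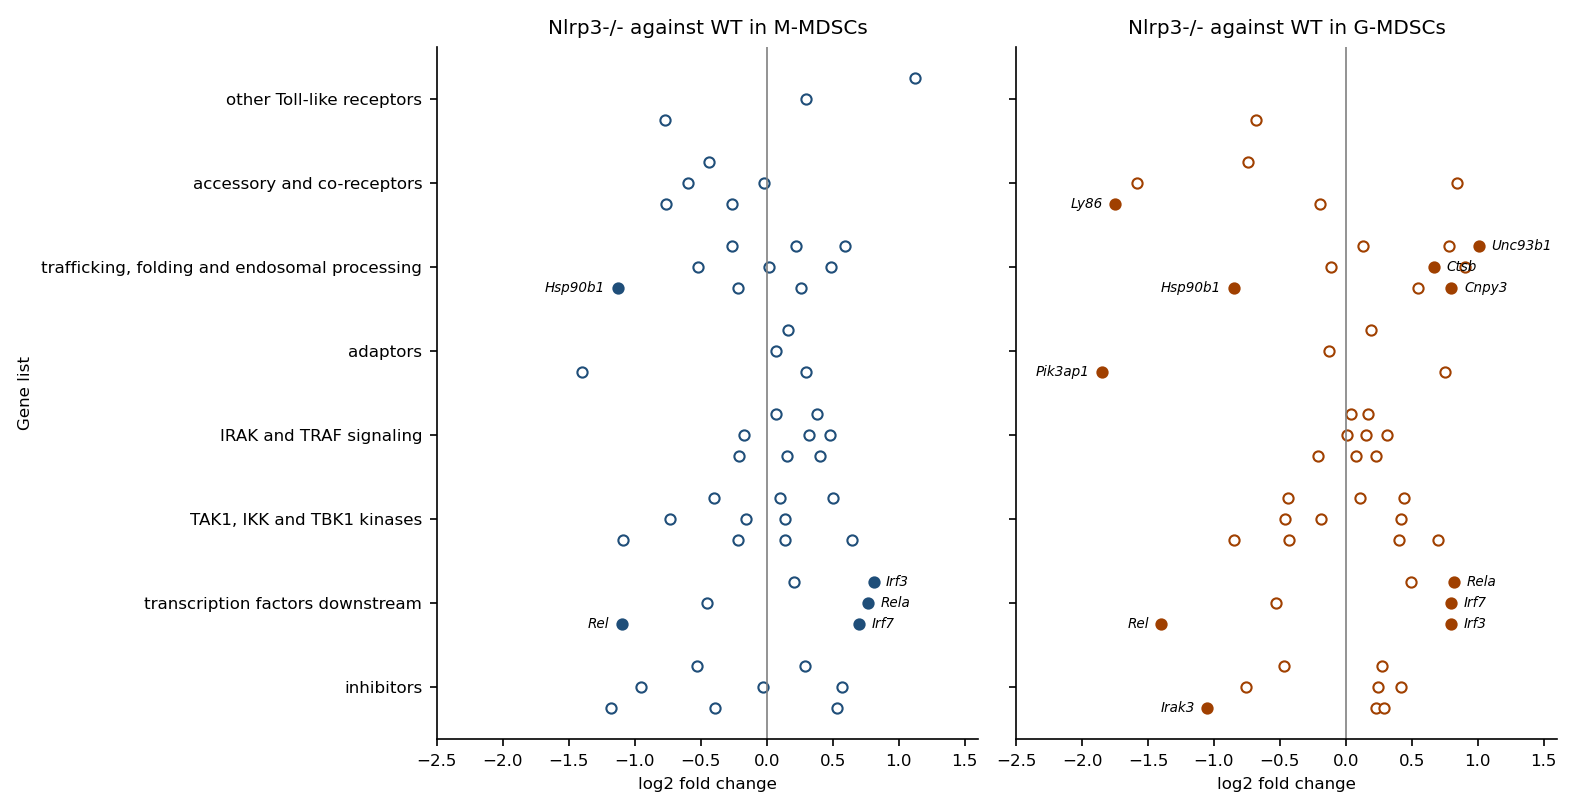
Log2 fold change of Nlrp3-/- against WT mice (x axis) for the pathway genes tested in M-MDSCs (left, 53 genes) and G-MDSCs (right, 51 genes), in rows by list (y axis). Each point is 1 gene, offset vertically only to separate it from others, and filled and named where it passed the test. Rela, Irf3 and Irf7 lie between 0.70 and 0.82 and Rel at -1.10 and -1.40.

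The genes whose pattern over the 16 libraries was most like that of each member were found by the root mean square difference of log2 CPM, each gene centred on its own mean. For Tlr6 they were Oasl2 (0.27) and Ifi27 (0.28). For Tlr4 they were Capn1 (0.24) and Tmem120a (0.32), for Tlr13 Mbp (0.12) and Ncf4 (0.18), and for Myd88 Tpm4 (0.16). Tlr2 had Actr1b (0.26) and Mtmr14 (0.29), Tlr1 had Mtmr9 (0.34) and Scly (0.35), Tlr7 had Nr2c1 (0.34) and Socs6 (0.39), and Cd14 had Cstf2t (0.37) and Psmb9 (0.38). Tlr8, the member with the fewest counts among those tested, had Thrap3 (0.48) and Ints6 (0.49). Among the members themselves Tlr4 and Tlr6 (0.48) and Tlr13 and Myd88 (0.44) were nearest to each other. These values describe likeness over libraries that share mice and subsets.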

How the data were processed

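QuantSeq 3′ mRNA libraries were made from sorted splenic M-MDSCs and G-MDSCs, 1 mouse per RNA sample, with 15 or 17 amplification cycles that the labels do not assign to libraries. The authors mapped reads to mm10 with HISAT2 2.1.0, counted them per gene by strand with HTSeq and deposited the raw counts of 24421 symbols per library, whole numbers that were used as they are. A 3′ read count does not depend on the whole transcript length, and levels were compared between samples and not between genes.

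The software was R 4.3.3, edgeR 4.0.16, DESeq2 1.42.0 and, for figures, matplotlib 3.10.9. Low counts were filtered by filterByExpr and libraries scaled by TMM, and edgeR's quasi-likelihood test was applied to the 8 libraries compared, or to all 16 for the difference of the genotype effect. A gene was called at a Benjamini-Hochberg adjusted p below 0.05 and a fold change above 1.5. The SE is the log2 fold change divided by the square root of F. Alternatives were other scalings and filters, DESeq2, edgeR's exact test, a model of all 16 libraries, offsets for GC content and length (splines with 4 degrees of freedom, 24054 symbols matched to GENCODE), a replicate block, and each library left out. The scripts were tested on simulated data. M-MDSC and G-MDSC samples with the same number come from the same mouse per the labels, and their deviations from the group means correlated at 0.10 to 0.40 in WT and 0.01 to 0.38 in Nlrp3-/- mice.

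The 24 pairs of libraries within a group all differed beyond counting error, with a chi-square per degree of freedom of at least 6.76. Promoters were taken from RefSeq for 7 of the 10 members. Named pathway genes were fixed partners of the receptors and the 2 higher and 2 lower called genes with the smallest p in each comparison. For each member the nearest genes by pattern are named, except 1 that is not reported here. The members and lists were chosen with earlier results of these data known.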

Additional observations from a re-analysis of the deposited data

Results flagged for a closer look

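Over 36 sets of 4 samples, the 9 tested members in 4 groups, 3 held a sample set apart from the others by more of the group's range than Dixon's 95% critical value for 4 samples allows. Chance gives about 1 in 20 such sets. Tlr1 was at 3.46 CPM in Nlrp3-/- G-MDSC replicate 2 against 10.4 to 11.4 CPM in the other 3. Tlr2 was at 299 CPM in Nlrp3-/- G-MDSC replicate 4 against 145 to 167 CPM, and Tlr4 at 32.5 CPM in WT G-MDSC replicate 2 against 40.4 to 41.9 CPM.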

How the results depend on the processing

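Over the single genes, 874 of 948 values under alternatives other than a library left out kept the direction and the side of the threshold, 51 lost the call, 15 gained one and 8 changed sign. With a library left out the numbers were 653 of 728, 57, 6 and 12. With GC and length offsets the count of all genes called between genotypes was 652 in M-MDSCs and 981 in G-MDSCs, against 1060 and 1522, that of members 2 in G-MDSCs, and that of pathway genes 2 and 6, against 5 and 11. WT and Nlrp3-/- samples with the same number are different mice and their deviations did not pair (correlations of -0.45 to 0.02 in M-MDSCs and -0.26 to -0.04 in G-MDSCs). With that number as a replicate block the counts of all genes were 425 and 985, of members 1 and 0, and of pathway genes 2 in M-MDSCs, and Cd14 in G-MDSCs was at 0.00. With the replicate block and the offsets together the counts were 39 and 384 for all genes, 0 for members in M-MDSCs and 0 and 4 for pathway genes. For M-MDSCs the pathway count was 10 under DESeq2 and 9 under the exact test. For the difference of the genotype effect the count of all genes was 5 with no filter, 8 under DESeq2 and 5 with the block and offsets, against 3. Blocking on the mouse changed no member call between subsets other than Tlr2 in WT and Cd14 in Nlrp3-/- mice.

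With each library left out, the counts between genotypes ran from 450 to 1783 for all genes, 1 to 3 for members and 1 to 14 for pathway genes in M-MDSCs, the highest without Nlrp3-/- replicate 1 and the lowest count of all genes without Nlrp3-/- replicate 4. In G-MDSCs they ran from 0 to 2 for members and 7 to 14 for pathway genes, and for the difference of the genotype effect from 2 to 5 for all genes.

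The following values changed sign, each uncalled except that of Irak4. Without TMM, Tlr2 between subsets in WT mice was -0.05, Cd14 in Nlrp3-/- mice -0.18 and Irak4 there -0.07. Cd14 between subsets in WT mice was 0.00 with DESeq2 or its size factors, 0.20 with the offsets and 0.02 with the block and offsets, and ran from -0.58 to 0.28 with a library left out. With a library left out, the log2 fold changes between genotypes ran from -0.21 to 0.01 for Myd88 in M-MDSCs, and in G-MDSCs from -0.06 to 0.52 for Tlr1, -0.09 to 0.15 for Tlr13 and -0.53 to 0.36 for Cd14. For Tlr8 between subsets in Nlrp3-/- mice they ran from -0.96 to 0.05. The cause was not tested in any of these.

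With 4 mice a group, the adjusted p of Tlr6 sat near the threshold in both subsets, and Tlr8, Tlr1 and Tlr9 rest on few counts. The G-MDSC and M-MDSC levels depend on TMM, whose factors differed between subsets.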
